A study of Mus musculus with 3 samples.

Results

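The genes described here encode the proteins of the cytosolic ribosome. They were all rows of the count matrices whose symbol starts with Rpl or Rps followed by a number, together with Rplp0, Rplp1, Rplp2 and Rpsa, and without the Rps6k kinases. The rule found 86 genes of 32288 listed features. Of these, 77 are the standard proteins of the ribosome, 31 of the small (40S) subunit and 46 of the large (60S) subunit. Another 8 are paralogs, that is, second copies of a standard gene (Rpl3l, Rpl7l1, Rpl10l, Rpl22l1, Rpl36al, Rpl39l, Rps27l and Rps27rt). The remaining 1, Rps19bp1, encodes a protein that binds Rps19 and is no part of the ribosome. Fau and Rack1 encode ribosomal proteins too, but their symbols fall outside the rule. Per the annotation all 86 genes are protein coding; they lie on 19 chromosomes, with 4 on X.

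The cells came from patellar tendons of wild-type mice that carried no stated treatment, dissociated with collagenase and sorted so that cells of the blood lineage and of the endothelium were discarded. A library was made from mice aged 2 weeks (1 sample) and 2 libraries, replicate 1 and replicate 2, from mice aged 20 weeks. Messenger RNA was counted from its 3′ end with unique molecular identifiers (UMIs), so that 1 UMI stands for 1 captured molecule and levels need no division by gene length. The number of animals behind each library is not in the labels, so p-values measure only the spread between these libraries. The test used, edgeR, takes this spread in part or wholly from all genes of like level, not from each gene alone. With 1 library at 2 weeks, age and library cannot be told apart.

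Ribosomes read messenger RNA and join amino acids into protein, and their proteins are among the most abundant transcripts of a growing cell. Each standard protein is needed in 1 copy per ribosome, except the stalk proteins, and the genes are generally expressed together. Many of their messages start with a run of pyrimidines, the 5′ TOP motif, through which mTOR signalling sets their translation. A few ribosomal proteins have a paralog that can take the same place in the ribosome and is used mainly in certain tissues, such as Rpl3l in striated muscle and Rpl10l in testis. Tendon cells make large amounts of collagen, so their secretory and translation machinery is of interest.

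After filtering, 4739 cells of the 2-week library, 606 of 20-week replicate 1 and 1006 of 20-week replicate 2 were used, with 32484265, 1784845 and 5423604 UMIs in all and medians of 6492, 2822 and 5126 UMIs per cell. Pairs of libraries shared at most 1 cell barcode. Replicate 2 held cells that the other libraries lacked: 83 muscle fibre-like and 66 B lineage-like cells, the latter from a lineage that the sort was meant to remove. The summed level of 10 muscle fibre markers was 4795 CPM (UMIs of a gene or list per 1000000 UMIs) in replicate 2, against 46.5 CPM at 2 weeks and 11.2 CPM in replicate 1. Chondrocyte-like (656 cells) and osteogenic-like cells (147 cells) came almost only from the 2-week library. Tenocyte-like, progenitor-like and mural-like cells had at least 20 cells in all 3 libraries, and all 10 tenocyte markers were detected in each. Different clusters held these classes at the 2 ages. Of the tenocyte-like cells, 434 of 668 at 2 weeks fell in a cluster led by Angptl7, Crabp1 and Kera. At 20 weeks 229 of 240 and 112 of 165 fell in one led by Spp1, Ibsp, Clu and Chad. The leading genes Spp1, Ibsp, Clec3a and Chad were shared by that cluster and the 2-week osteogenic-like cluster. For the latter only 3 of 8 osteogenic markers counted as detected under the naming rule, so its name is uncertain. It was not part of the tenocyte-like age comparison. Of the progenitor-like cells, 656 of 866 at 2 weeks fell in a cluster led by Cd55 and Dact2. At 20 weeks 242 of 252 and 511 of 526 fell in one whose leading genes included the inflammatory genes Ccl7, Tnfaip6 and Ptx3 beside the markers Pi16 and Cd248. At clustering resolution 1.0 only 124 and 222 cells of the 20-week libraries had the progenitor-like name. Unnamed clusters there included one led by Hmcn2 and Fmo2 (33 and 257 cells) and one led by Mmp3, Lpl and Cxcl14 (95 and 52 cells). The 20-week progenitor-like class of the main clustering may thus hold other fibroblasts too. Of the mural-like cells, 455 of 669 at 2 weeks fell in a cluster led by P2rx1, Actg2 and Cnn1, which held 17 of 44 and 1 of 35 at 20 weeks. The others, 27 and 34 cells at 20 weeks, fell in one led by Rgs5, Kcnj8 and Abcc9. The summed level of 8 osteogenic markers, among them genes that lead the 20-week tenocyte-like cluster, was 254 CPM over all cells at 2 weeks, 3494 CPM in replicate 1 and 632 CPM in replicate 2, with Dmp1 and Sp7 at 0 in both 20-week libraries. It thus moved with the tenocyte-like age comparison, and its part in the results was not tested. Age differences within a class are therefore also differences between clusters.

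Ribosomal protein genes took 17.95% of all UMIs in the 2-week library, 20.4% in 20-week replicate 1 and 16.4% in 20-week replicate 2. The 2-week value lay between the other two. The mean of the 20-week libraries stood 0.469 percentage points above the 2-week library, with an SD between the 20-week libraries of 2.79 points, so no difference beyond the spread was seen. Exact 95% binomial intervals were at most 0.12 points wide, but they cover counting error only. With 1 library against 2, no permutation test of a single value can give a p below 1 in 3, so shares were compared as values only.

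**Figure D1:**
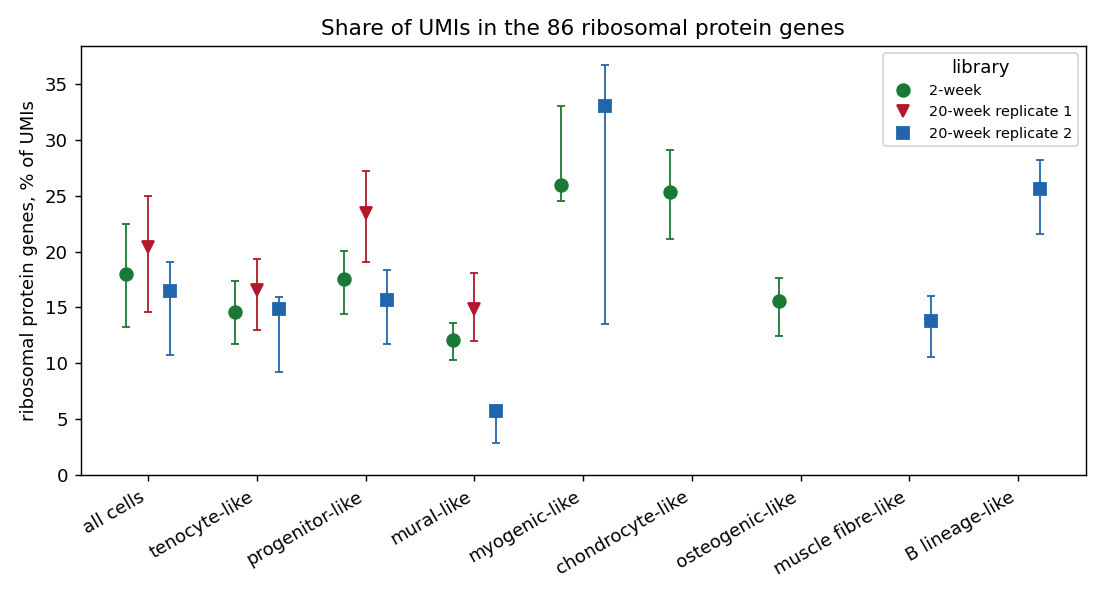
Share of UMIs in the 86 ribosomal protein genes (y axis, %) by cell class (x axis) and library; points are pooled shares and bars run from the lower to the upper quartile of single cells. Myogenic-like, chondrocyte-like and B lineage-like cells stand above 25%, and mural-like cells of 20-week replicate 2 stand lowest at 5.73%.

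The plot of shares by class shows that cell classes within a library differed more than the libraries did over all cells. In the 2-week library, myogenic-like cells, which include muscle stem cells, had 25.9% of their UMIs in ribosomal protein genes, and chondrocyte-like cells had 25.4%. Progenitor-like cells had 17.6%, osteogenic-like cells 15.6%, tenocyte-like cells 14.6% and mural-like cells, the contractile cells around vessels, 12.1%. Unnamed cluster 1, fibroblasts led by Igfbp3, Sfrp2 and Ptn, had 21.2%. In 20-week replicate 2, myogenic-like cells again stood highest at 33.0%, followed by B lineage-like cells at 25.6%, and muscle fibre-like cells had 13.8%. Classes come from clustering these same cells, although without the ribosomal protein genes, so the differences between classes are given without a test.

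The 3 classes present in every library kept 1 order: progenitor-like above tenocyte-like, and tenocyte-like above mural-like, except that at clustering resolution 1.0 the tenocyte-like share of replicate 2, 16.9%, stood just above the progenitor-like share, 16.8%. In progenitor-like cells the share was 17.6% at 2 weeks, 23.5% in replicate 1 and 15.7% in replicate 2. In tenocyte-like cells it was 14.6%, 16.5% and 14.9%. In mural-like cells it was 12.1%, 14.9% and 5.73%, the last from only 35 cells. Within the mural-like cluster led by Rgs5 alone it was 13.9%, 17.1% and 5.37%. Replicate 1 was highest and the 2-week value lay between the 20-week values in progenitor-like and mural-like cells, while in tenocyte-like cells both 20-week values lay above it. That order of ages in tenocyte-like cells turned when collagen UMIs were taken out of the total. Collagens took 14.7% of UMIs in 2-week tenocyte-like cells and 0.714% and 0.937% in those of the 20-week libraries. Without them the ribosomal share was 17.1% at 2 weeks, 16.6% in replicate 1 and 15.03% in replicate 2.

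The share also differed with depth. With the cells of each library put in 4 groups of like size, from the fewest to the most UMIs per cell, the share was 17.8%, 19.6%, 18.9% and 16.6% at 2 weeks. It was 18.5%, 21.4%, 20.4% and 20.5% in replicate 1, and 11.8%, 16.9%, 16.8% and 17.0% in replicate 2. The shallowest group was the lowest in both 20-week libraries, by most in replicate 2, whereas at 2 weeks the deepest group was the lowest. Mural-like cells of replicate 2 had a median of 2018 UMIs, and the mural markers summed to 381 CPM in that library against 10343 CPM at 2 weeks. The part of depth in these shares was not tested beyond thinning each cell to 1000 UMIs, which left median shares per cell of 17.3%, 19.3% and 14.5% in the 3 libraries.

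Between the ages, no ribosomal protein gene passed edgeR's quasi-likelihood test at a Benjamini-Hochberg adjusted p of 0.05, over all cells or in any class. Over all cells 85 of the 86 genes passed the filter on low counts (Rpl10l had no UMI), and 0 were called. Of all 13227 genes tested 0.144% were called, 3 higher and 16 lower at 20 weeks, so this fit called few genes of any kind. At an unadjusted p under 0.05, 1 of the 85 stood (Rpl3l), against 8.86% of all genes. In tenocyte-like cells 84 genes were tested and 0 were called, where 9.03% of 8041 genes were. In progenitor-like cells 84 were tested and 0 were called, where 2.59% of 11454 genes were. At an unadjusted p under 0.05 the count was 0 in both classes, against 18.7% and 11.4% of all genes. DESeq2 called 0 ribosomal protein genes in tenocyte-like and progenitor-like cells and 1, Rpl3l, over all cells. Of all genes it called 197 higher and 121 lower of 8041 in tenocyte-like cells, and 125 and 49 of 11454 in progenitor-like cells. Over all cells it called 120 and 77 of 13227. The progenitor-like comparison rests on how doublets were called, since under a first rule the 20-week libraries held fewer than 20 such cells each. In mural-like cells 80 genes were tested and 0 were called, against 0.0857% of 2334 genes, and at an unadjusted p under 0.05 the count was 0 against 3% of all genes. The standard error of a log2 change there was 2.10 for Rpl13 and 1.29 for Rpl36al, against 0.91 and 0.61 over all cells. Differences of ordinary size were thus not detectable in this fit. The mural-like sums of the 20-week libraries differed by a median log2 ratio of 1.91 over the members. The parts of this spread and of depth in the standard errors were not tested.

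The median log2 change (20-week over 2-week, edgeR) of the tested members was 0.11 for all cells, 0.03 for tenocyte-like, 0.25 for progenitor-like and -0.34 in mural-like cells. The medians of all genes tested were 0.03, 0.04, 0.02 and 0.05. These medians average 20-week libraries that stood on opposite sides of the 2-week library. With replicate 1 alone the members' median was 0.43, 0.27, 0.64 and 0.31 in the same order of cells. With replicate 2 alone it was -0.27, -0.30, -0.25 and -1.57, so leaving out either library fixes the direction. Replicate 1 was higher than replicate 2 for 78 of 85 genes over all cells, with a median log2 ratio of 0.66. It was higher for 68 of 84 in tenocyte-like (median 0.48), 80 of 84 in progenitor-like (0.88) and 80 of 80 in mural-like cells (1.91). Of all genes tested, 6367 of 13227, 4119 of 8041, 5521 of 11454 and 1217 of 2334 were higher in replicate 1, in the same order of cells. Their medians were -0.02, 0.01, -0.03 and 0.08. For the members, the 20-week libraries thus differed from each other by more than their mean differed from the 2-week library.

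**Figure D2:**
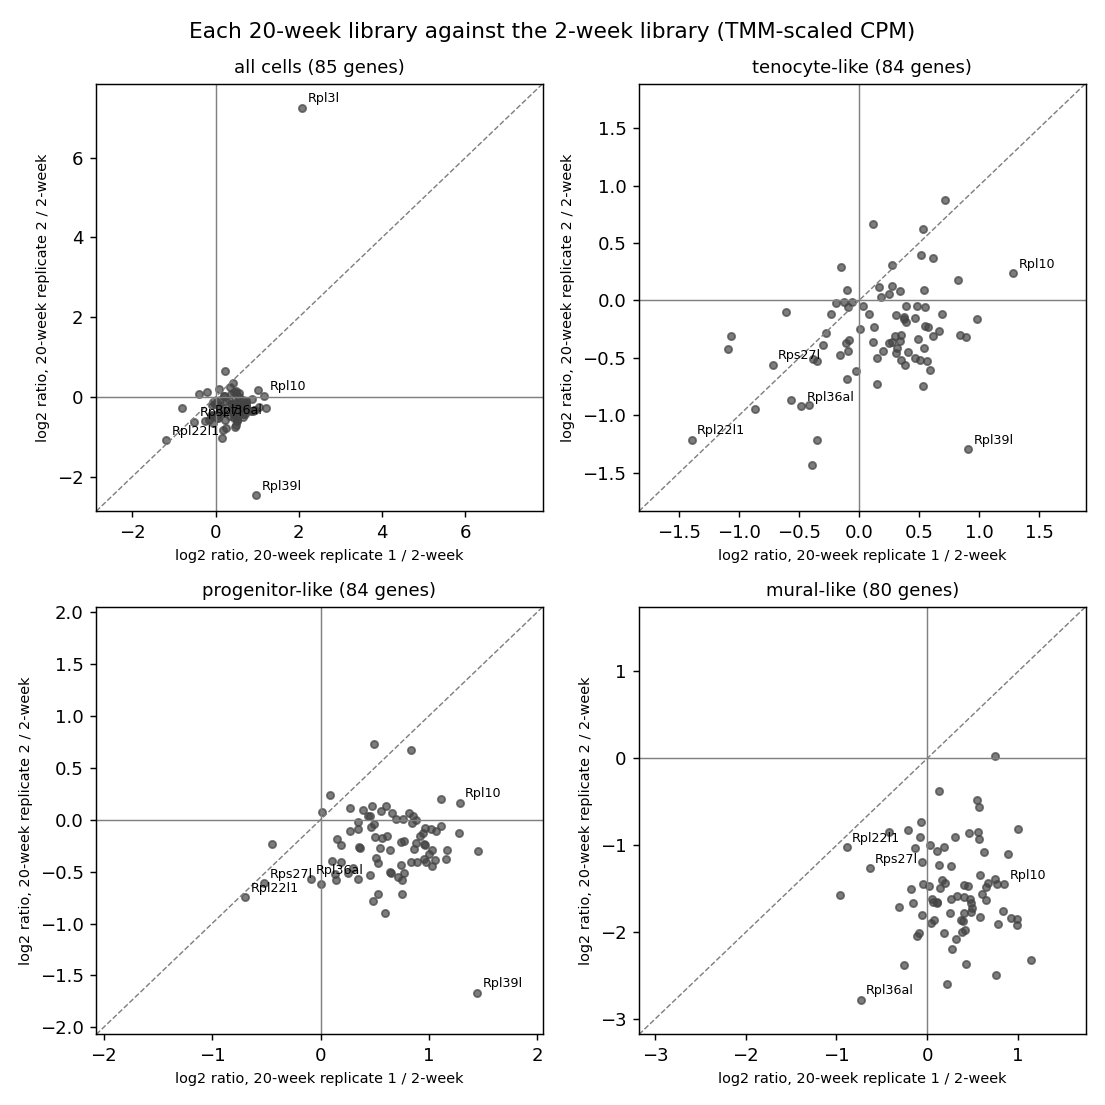
Log2 ratio of each tested ribosomal protein gene in 20-week replicate 1 (x axis) and 20-week replicate 2 (y axis) over the 2-week library, from TMM-scaled CPM, in 4 sets of cells; the dashed line marks equal ratios. Most points lie below the dashed line, that is, higher in replicate 1 than in replicate 2, while Rpl22l1 and Rps27l lie below 0 on both axes in every panel.

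As the plot of each 20-week library against the 2-week library shows, most genes were split. Over all cells, 15 of 85 genes were higher in both 20-week libraries and 12 were lower in both, against 31.5% and 34.5% of all genes, and 58 lay on opposite sides. In tenocyte-like cells 14 of 84 were higher and 26 lower in both, against 35.1% and 35.7% of all genes. In progenitor-like cells the counts were 18 and 4, against 32.6% and 35.3%. In mural-like cells they were 1 and 18 of 80, against 26.1% and 29.4%. In all 3 of the sums over all, tenocyte-like and progenitor-like cells, 4 of 84 genes were lower in both 20-week libraries: Rpl22l1, Rps27l, Rpl36al and Rpl39. Of all 7859 genes tested in these 3 sums 20.7% were. In the same 3 sums 8 of 84 were higher in both, against 17.4% of all genes: Rpl10, Rpl13a, Rpl17, Rpl21, Rpl23a, Rpl37, Rps27 and Rps27rt. Both counts of members were below those shares. The class sums are parts of the sum over all cells, so these are not independent sightings.

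Rpl22l1 is the paralog of Rpl22, an RNA-binding protein of the large subunit near the exit of the peptide tunnel, and Rpl22 is known to repress Rpl22l1 by binding its RNA. Over all cells Rpl22l1 stood at 1088 CPM at 2 weeks, 414 CPM in 20-week replicate 1 and 575 CPM in replicate 2. Rpl22 stood at 1225, 1219 and 1388 CPM. Both 20-week libraries were thus well below the 2-week library for the paralog and close to it for the standard gene. As a share of the pair's UMIs, Rpl22l1 made up 47.0% at 2 weeks (exact 95% binomial interval 46.7% to 47.4%), 25.4% in replicate 1 (23.8% to 27.0%) and 29.3% in replicate 2 (28.4% to 30.2%). The mean 20-week share minus the 2-week share was -19.7 points, and the 20-week libraries had an SD of 2.79 points.

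The lower share of Rpl22l1 at 20 weeks was also seen within the main classes. In tenocyte-like cells the share was 45.1% at 2 weeks, 24.6% in replicate 1 and 26.3% in replicate 2. In progenitor-like cells it was 41.6%, 24.5% and 29.4%, and in unnamed cluster 1 it was 46.6%, 24.8% and 25.7%. In these 3 sets of cells both 20-week shares were below the 2-week share. In TMM-scaled level, 35.7% of all genes tested for tenocyte-like and 35.3% of those for progenitor-like cells were lower in both. In mural-like cells the values were 49.8%, 34.4% and 49.3%, with only 42 and 36 UMIs of the paralog at 20 weeks, and there they nearly met. Among the 2-week classes the share ran from 37.5% in osteogenic-like to 51.4% in chondrocyte-like cells. In unnamed cluster 16 it was 61.6% at 2 weeks and 62.0% in replicate 2, where it rested on 62 and 38 UMIs of the pair. In replicate 2, B lineage-like cells had 28.8%, muscle fibre-like cells 27.4% and myogenic-like cells 34.4%.

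The gene test did not call Rpl22l1. Its log2 change was -1.13 over all cells (SE 0.60, adjusted p = 0.73), -1.30 in tenocyte-like cells (SE 0.72, adjusted p = 0.334) and -0.72 in progenitor-like cells (SE 0.60, adjusted p = 0.802), by edgeR's quasi-likelihood test. It was the lowest log2 change of the tested members in each of these 3 comparisons. Over the alternatives the adjusted p ran from 0.406 to 0.910, from 0.310 to 0.668 and from 0.767 to 1.000. Thinning each cell to 1000 UMIs brought the tenocyte-like difference in share from -19.6 to -12.6 points, with shares of 39.9%, 27.5% and 27.1% in the 2-week library, replicate 1 and replicate 2.

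Rps27l is the paralog of Rps27, a zinc-finger protein of the small subunit, and is known as a target of p53. Its level over all cells was 380 CPM at 2 weeks, 230 CPM in replicate 1 and 277 CPM in replicate 2. Rps27 stood at 2097, 2131 and 3667 CPM, highest in replicate 2. Rps27l made up 15.3%, 9.75% and 7.02% of the pair. The 20-week mean minus the 2-week share was -6.93 points, with an SD of 1.93 points between the 20-week libraries. In tenocyte-like cells the shares were 18.4%, 11.2% and 8.80%, and in progenitor-like cells 16.3%, 8.75% and 7.11%. Both 20-week shares were lower in either class, a side on which, in level, 35.7% and 35.3% of all genes lay. Mural-like cells had the highest share of any class in every library, with 24.9%, 16.4% and 15.2%, although in replicate 2 muscle fibre-like cells were close at 14.4% and the intervals overlapped. In the 2-week library chondrocyte-like cells had the lowest share, 9.63%. The log2 change of Rps27l was -0.56 over all cells (SE 0.54, adjusted p = 0.92, edgeR), and the gene was not called.

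Rpl36al on chromosome 12 is the autosomal relative of Rpl36a on the X chromosome. Its share of the pair over all cells was 38.9% at 2 weeks, 35.2% in replicate 1 and 33.1% in replicate 2. Tenocyte-like cells had 53.1%, 42.0% and 35.5%, and progenitor-like cells 39.7%, 32.8% and 32.1%. The 2-week value was the highest in each of these sets; in level, 34.5%, 35.7% and 35.3% of all genes were likewise lower in both 20-week libraries. In the 2-week library, osteogenic-like cells (50.8%) stood near tenocyte-like cells, and chondrocyte-like cells stood lowest at 26.2%. The log2 change of Rpl36al was -0.35 over all cells (SE 0.61) and -0.68 in tenocyte-like cells (SE 0.74), with adjusted p of 0.979 and 0.748 by edgeR.

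**Figure D3:**
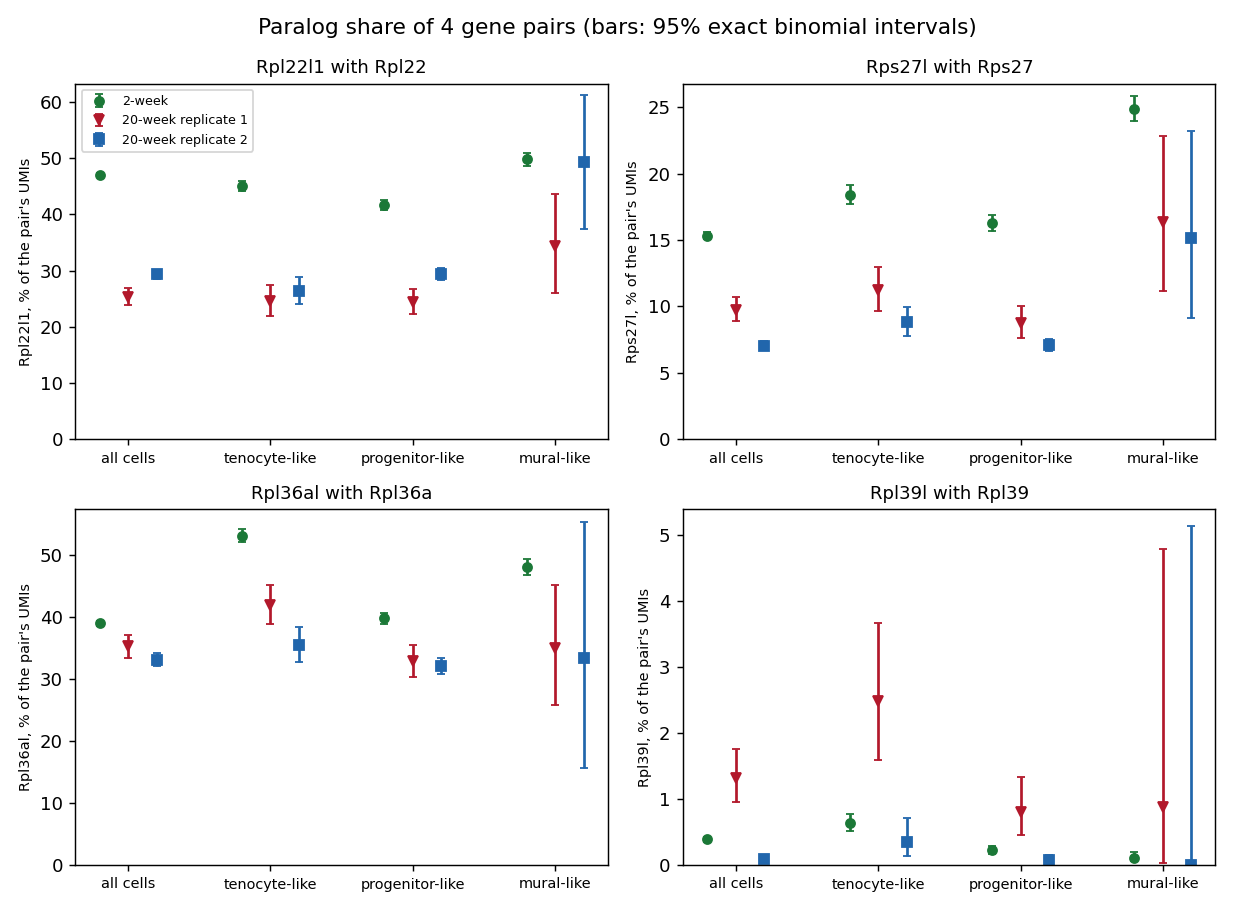
Share of a pair's UMIs that belong to the paralog (y axis, %) in all cells and in the 3 classes present in every library (x axis), for 4 pairs; bars are exact 95% binomial intervals, which cover counting error only. For Rpl22l1, Rps27l and Rpl36al the 2-week point lies above both 20-week points in all, tenocyte-like and progenitor-like cells, while Rpl39l is highest in 20-week replicate 1.

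For the pairs whose shares differed most between the ages, the bases around the transcription start that RefSeq annotates on GRCm38.p6 are given below, from 30 bases before the start to 20 bases into the transcript, 5′ to 3′ on the gene's strand. They show where runs of pyrimidines lie near the start. Capitals mark a run of at least 8 C or T bases that comes within 10 bases of the start.
Rpl22l1 (chr3:28805478-28805527, plus strand): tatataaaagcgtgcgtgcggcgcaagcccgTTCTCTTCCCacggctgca
Rpl22 (chr4:152325696-152325745, plus strand): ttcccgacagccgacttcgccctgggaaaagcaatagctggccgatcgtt
Rps27l (chr9:66946056-66946105, plus strand): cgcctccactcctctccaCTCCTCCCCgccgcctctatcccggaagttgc
Rps27 (chr3:90213629-90213678, minus strand): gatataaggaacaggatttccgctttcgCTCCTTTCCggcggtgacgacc
Rpl36al (chr12:69184048-69184097, minus strand): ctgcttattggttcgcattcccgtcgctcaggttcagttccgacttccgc
Rpl36a (chrX:134585624-134585673, plus strand): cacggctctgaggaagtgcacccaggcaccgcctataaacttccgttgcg

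The run was 10 bases long in Rpl22l1 and 4 in Rpl22, whereas Rps27l and Rps27 both had a run of 9 and the Rpl36a pair had 5 each. In Rps27l the run lies wholly before the annotated start. A run of at least 8 was thus present in the paralog alone, in both members and in neither member of the 3 pairs. For Rpl22l1 the GENCODE annotation starts the gene 72 bases further upstream, so its start is less certain than that of Rps27l, where both annotations meet. For Rpl22 and Rpl36al the annotated starts lie 16 bases apart, more than the 10 bases used to look for a run. The runs given for these genes therefore also depend on the start chosen. Over the 66 members with a RefSeq promoter, 27 (40.9%) had such a run, and 25 of 57 standard genes did (43.9%). Of 20592 genes with a promoter entry, 13.3% had one. The longest runs belonged to Rpl7a (21 bases), Rpl27a (20), Rpl35 (18) and Rpl15 (17), all of the large subunit. The promoter window of 250 bases before to 50 after the start was also searched on both strands for 4 letter strings. CTTCCG, the core to which ETS factors bind, was found in 66.7% of members and 20.0% of all genes. AAGATGGC, the core of YY1 sites, was found in 7.58% and 3.09%, TATAAA in 9.09% and 13.2%, and CANNTG, the E-box, in 50% and 70.0%. These matches describe the letters in the window and are not sites of binding.

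Rpl3l replaces Rpl3, a core protein near the peptidyl transferase centre, in heart and skeletal muscle. Its UMI counts were 5 in the 2-week library, 1 in replicate 1 and 143 in replicate 2. Of the 143, 139 lay in the 83 muscle fibre-like cells, 3 in tenocyte-like and 1 in B lineage-like cells. In muscle fibre-like cells Rpl3l stood at 474 CPM and made up 65.3% of the pair (exact 95% binomial interval 58.5% to 71.6%), with 74 UMIs of Rpl3. After thinning to 1000 UMIs, 30.1% of muscle fibre-like cells held an Rpl3l UMI. Of the 7 other sets of cells in replicate 2, none had 1 after thinning, although most were sequenced more deeply per cell. Myogenic-like cells had no Rpl3l UMI in 128 cells at 2 weeks, which allows a share of up to 2.34% of cells with a UMI, and none in 32 cells of replicate 2 (up to 9.38%), where Rpl3 had 631 UMIs.

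**Figure D4:**
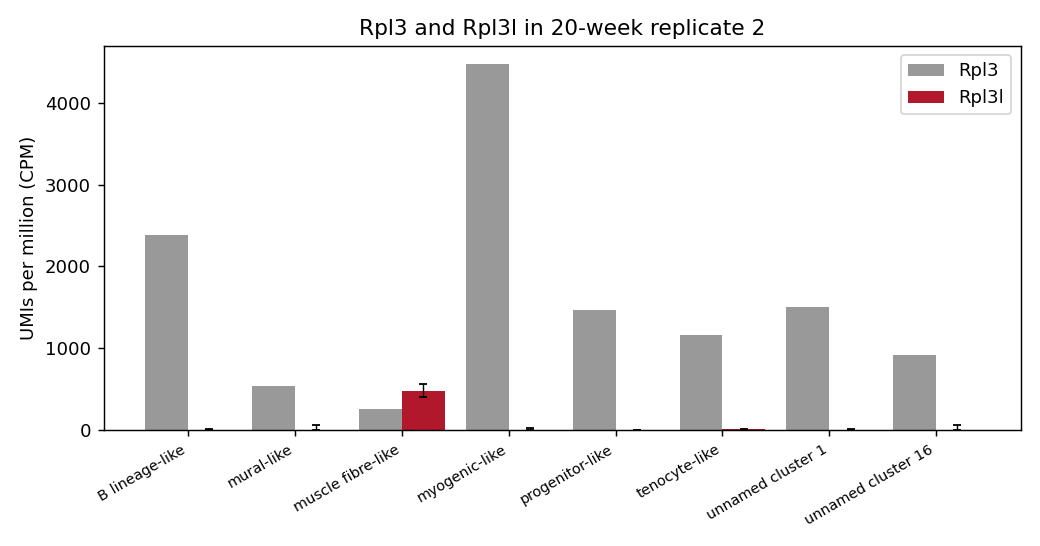
Level of Rpl3 (grey) and Rpl3l (red) in CPM (y axis) in each class or cluster of at least 20 cells of 20-week replicate 2 (x axis); bars on Rpl3l are exact 95% binomial intervals. Rpl3l stands at 474 CPM in muscle fibre-like cells, where it exceeds Rpl3, and at 3.89 CPM or less in the other sets.

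Over all cells Rpl3l had the highest log2 change of any member, 6.32 (SE 1.83), and it missed the threshold (adjusted p = 0.365, edgeR). DESeq2 called it (adjusted p = 0.0197), and so did edgeR with all genes of at least 1 UMI (adjusted p = 9.1e-08) and edgeR with libraries scaled to their ribosomal UMIs (adjusted p = 0.00126). Over its 8 tested alternatives the adjusted p ran from 9.1e-08 to 0.732. The value rests on replicate 2: with replicate 1 alone the log2 ratio was 1.40, from 1 UMI against 5. Without muscle fibre-like and B lineage-like cells Rpl3l no longer passed the filter and 0 of the 84 other genes were called. In a sum over all cells, more cells of a type and more RNA per cell cannot be told apart. The muscle fibre-like class had 83 cells in replicate 2 and 0 in each of the other libraries.

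Rpl39l, the paralog of the small tunnel protein Rpl39, was scarce. It had 472, 44 and 16 UMIs, or 0.387%, 1.31% and 0.0846% of the pair. Replicate 1 stood above the 2-week library and replicate 2 below it, so its log2 change was -0.03 (SE 1.11, adjusted p = 0.997, edgeR). In every library tenocyte-like cells had a larger share (0.631%, 2.48% and 0.346%) than progenitor-like cells (0.219%, 0.807% and 0.0810%). At 2 weeks osteogenic-like cells had the largest share of the named classes, 1.75%, at 51.8 CPM. Rpl39 itself stood at 3739 CPM at 2 weeks, 1853 CPM in replicate 1 and 3486 CPM in replicate 2, with a log2 change of -0.51 (SE 0.78).

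Of the other paralogs, Rpl7l1, a relative of Rpl7, made up 3.36% of its pair at 2 weeks, 2.03% in replicate 1 and 2.97% in replicate 2. Rps27rt, a near copy of Rps27 that counting may not have separated from it, stood at 21.0, 23.0 and 27.8 CPM. In tenocyte-like cells it stood at 11.6, 19.4 and 27.2 CPM, with a log2 change of 0.80 (SE 0.59, adjusted p = 0.548, edgeR). Rpl10l, the testis paralog of Rpl10, had no UMI in any library. Over 4739, 606 and 1006 cells this allows a share of up to 0.0633%, 0.495% and 0.298% of cells with a UMI. Rps19bp1 stood at 34.6, 40.3 and 42.4 CPM.

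Among the standard genes, Rpl13 had on average the most UMIs, at 4370, 6214 and 4276 CPM in the 2-week library, replicate 1 and replicate 2. It was followed by Rps29, a zinc-finger protein of the small subunit, at 3948, 5031 and 4716 CPM. Next came Rpl41, which encodes the smallest ribosomal protein, at 5375, 3927 and 3956 CPM. Rps24 had 4689, 4319 and 3959 CPM, Rplp0 5150, 4949 and 2833 CPM and Rps20 4143, 4533 and 3320 CPM. Of these 6, Rpl41, Rps24 and Rplp0 were lower in both 20-week libraries on this plain scale. On the TMM scale only Rpl41 of the 3 was, and the 20-week libraries lay on opposite sides for Rps24 and Rplp0. Small-subunit genes held 43.3%, 44.2% and 43.6% of the UMIs of the standard genes, a range of less than 1 point. Across classes this share ran from 41.2% in unnamed cluster 16 of replicate 2 to 45.2% in B lineage-like cells. The 40S members had a median log2 change of 0.17 over all cells and the 60S members 0.10, with 0 called of 33 and of 51 tested. Of all genes tested over all cells 0.144% were called.

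The stalk of the large subunit, built of Rplp0 with Rplp1 and Rplp2, brings elongation factors to the ribosome. Rplp1 stood at 2344, 4145 and 2196 CPM and Rplp2 at 1177, 1682 and 1195 CPM over all cells, with replicate 1 highest. The stalk genes made up 6.08% of standard ribosomal UMIs in 2-week tenocyte-like cells, against 4.47% in progenitor-like and 4.08% in mural-like cells. In replicate 1 these values were 5.49%, 5.21% and 4.96%, and in replicate 2 they were 3.89%, 3.69% and 2.41%, so the classes kept their order in each library. Rplp0 in tenocyte-like cells had 5477 CPM at 2 weeks, 4238 in replicate 1 and 2590 in replicate 2. Both 20-week values were lower, with a log2 change of -0.82 (SE 0.84, adjusted p = 0.732, edgeR). The stalk genes' median log2 ratio of replicate 1 over replicate 2 was 1.18 over all cells, wider than the members' 0.66.

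Rpl5 and Rpl11 join the 5S RNA in a particle that also binds Mdm2, the regulator of p53. Rpl5 stood at 480, 541 and 445 CPM and Rpl11 at 2630, 3076 and 2027 CPM, with log2 changes of 0.09 (SE 0.63) and 0.03 (SE 0.83). Replicate 1 was highest and replicate 2 lowest for both. Among the highest log2 changes, Rpl10, a large-subunit protein added late in assembly, stood at 1559, 3021 and 1790 CPM. Its log2 change was 0.71 over all cells (SE 0.85), 0.86 in tenocyte-like cells (SE 0.86) and 0.83 in progenitor-like cells (SE 0.81), with adjusted p of 0.952, 0.726 and 0.845 by edgeR. Rpl13a had 506, 891 and 641 CPM and a log2 change of 0.66 (SE 0.70). Rps14 had 1505, 3018 and 1401 CPM, so only replicate 1 stood above the 2-week library. Processed pseudogenes with near-identical sequence exist for many of these genes, and how reads shared with them were counted is not given in the sources used here. Of such pseudogenes 3 rows were tested over all cells with 0 called, where 0.144% of all genes were. In tenocyte-like cells 2 were tested, where 9.03% of all genes were called. Of these, 1, Rpl10-ps3, was called higher (48, 31 and 13 UMIs, log2 change 1.72, adjusted p = 0.0386, edgeR).

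The part of the ribosomal UMIs that a gene took was also compared between pairs of the 3 classes. Of 248 comparisons of a gene between a pair of classes, 104 (41.9%) had the same direction in all 3 libraries, and the 5 genes given here are those whose smallest difference over the libraries was largest. Log2 differences of the UMIs per 10000 ribosomal UMIs, with 1 added, are given in the order of 2-week library, replicate 1 and replicate 2, and they are descriptions. Rps27l was higher in mural-like than in progenitor-like cells by 0.76, 0.95 and 1.27. Rpl22l1 was higher in mural-like than in progenitor-like cells by 0.43, 0.57 and 1.33. Rplp0 was lower in mural-like than in tenocyte-like cells, at -0.87, -0.43 and -0.93, and Rpl29 was higher, at 0.40, 0.43 and 0.71. Rpl39l was lower in progenitor-like than in tenocyte-like cells, at -0.58, -0.75 and -0.46. The 20-week mural-like values rest on 44 and 35 cells.

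Whether an age difference differed between tenocyte-like and progenitor-like cells was tested with the class by age term of edgeR's quasi-likelihood model, with the library as a block. Of 84 ribosomal protein genes 0 passed at an adjusted p of 0.05, against 5.73% of 11574 genes, and the smallest adjusted p was 0.622. At an unadjusted p under 0.05 the count was 0, against 13.6% of all genes. The change was more positive in progenitor-like cells for 79 of the 84, with a median difference of 0.25, against 0.04 for all genes. The share of all genes on that side was not counted. With replicate 1 alone the members' median log2 change was 0.64 in progenitor-like and 0.27 in tenocyte-like cells. With replicate 2 alone it was -0.25 and -0.30, so the classes differed far less there. At clustering resolution 1.0 the count was 59 of 84 and the median difference 0.10, against -0.02 for all genes.

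Other genes of the ribosome and of translation were counted beside the members. Of the ribosomal proteins outside the symbol rule, Rack1, a scaffold on the small subunit, had 609, 1589 and 584 TMM-scaled CPM. Fau, which encodes Rps30, had 3003, 4285 and 2825, and neither was called. The 20-week libraries lay on opposite sides of the 2-week library for both. Of 14 elongation factors and other TOP messages 0 were called over all cells, with a median log2 change of 0.03. Eef1a1 had 3564, 4257 and 2866 TMM-scaled CPM, and Tpt1 had 3206, 6188 and 3040. Of 25 initiation factors 0 were called (median 0.05), of 33 ribosome assembly genes 0 (median 0.21) and of 10 host genes of small nucleolar RNAs 0 (median -0.14). Over all cells the fit called 0.144% of 13227 genes, few of any kind. In tenocyte-like cells 1 of 26 assembly genes tested and 1 of 10 host genes were called, where 9.03% of 8041 genes were. In these cells Ddx21, an assembly helicase, rose (log2 change 1.54, SE 0.53, adjusted p = 0.0448, edgeR) from 93 UMIs at 2 weeks. There the host gene Snhg18 fell, from 605 TMM-scaled CPM at 2 weeks to 103 and 88.5 CPM (log2 change -2.66, SE 0.66, adjusted p = 0.00132, edgeR). In progenitor-like and mural-like cells 0 genes of these lists were called, where 2.59% and 0.0857% of all genes were.

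The proteins of the mitochondrial ribosome, which translates the mitochondrial genome, form a separate set of 78 genes. Their median log2 change was -0.35 for the sum of all cells, -0.47 for tenocyte-like and -0.45 for progenitor-like cells. A value below 0 was found for 70 of 78 (89.7%), 55 of 75 (73.3%) and 71 of 78 (91%), against 47.8%, 47.8% and 48.8% of all genes tested. In these 3 comparisons 1 of them was called, Mrps28 in tenocyte-like cells, where 9.03% of all genes were called, with 854, 16 and 38 UMIs (log2 change -2.25, SE 0.54, adjusted p = 8.7e-04, edgeR). Over all cells replicate 1 was above replicate 2 for 51 of the 78, with a median log2 ratio of 0.20, against 0.66 for the cytosolic members. Of all genes tested 6367 of 13227 were, with a median of -0.02. Within smaller lists of the cytosolic ribosome 0 genes were called over all cells, where 0.144% of all genes were. The 8 proteins at the rim of the exit tunnel had a median log2 change of 0.17 and the 6 of the messenger channel and decoding site 0.00.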

How the data were processed

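The deposited matrices hold UMI counts for every gene in every barcode; per the submitters' processing notes, Cell Ranger 6.1.2 and mm10 were used to make them. The gene models used and the treatment of reads that fit several genes are not given in the sources used here. The members, lists, pairs and naming rule were chosen with earlier results of these data known.

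Barcodes with at least 500 genes, 1000 UMIs and at most 10% mitochondrial UMIs were kept. Doublets were scored as in the scrublet method, and the highest-scoring barcodes up to a rate of 0.8% per 1000 barcodes were left out: 225 of the 2-week library, 3 of 20-week replicate 1 and 9 of replicate 2. This replaced a first rule, a valley in the score distribution, after that rule had marked far more barcodes of replicate 1 than loading would give. Cluster names had been seen by then, and ribosomal values had not. Under the first rule the Ccl7-led cluster was unnamed. Cells were clustered (scanpy 1.11.5, python-igraph 0.11.9, Leiden resolution 0.5) on 2000 variable genes without ribosomal, mitochondrial, cell cycle and dissociation genes. A cluster took a class name when at least 2 markers were among its 10 leading genes and 3 were detected, and 1 cluster with adipogenic markers was left unnamed after its genes were seen.

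Counts were summed per library and class of at least 20 cells and tested with edgeR 4.0.16 (R 4.3.3; TMM, filterByExpr, quasi-likelihood), adjusted over all genes tested; DESeq2 1.42.0 was an alternative. There is 1 residual degree of freedom: the spread at 2 weeks was taken to be that between the 20-week libraries. edgeR drew each gene's spread toward that of genes of like level. The median weight of this shared value (prior degrees of freedom) was 5.71 over all cells and 14.6 in progenitor-like cells. It was infinite in the tenocyte-like, mural-like and class by age fits, where the shared value stood in place of a gene's own. CPM in the text is plain unless called TMM-scaled. Shares have exact (Clopper-Pearson) 95% intervals; intervals and limits from 0 counts (3 counts of the total) cover counting error only. Genes named are the paralog pairs, the stalk, the 5S proteins, Rps19bp1, the 6 members with most UMIs, the ends of each comparison and the 5 largest class differences, with the lists' called genes and the longest pyrimidine runs added after their values were seen. Positions and starts are of GRCm38 (GENCODE M21 and RefSeq GRCm38.p6), and where RefSeq gives several starts the one nearest to GENCODE's was taken after 1 gene's starts had been seen. Alternatives changed tool, scaling, filter, depth, cell filter, doublets, clustering and libraries.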

Additional observations from a re-analysis of the deposited data

Results flagged for a closer look

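Some members moved in opposite directions in mural-like cells and in another class, with both 20-week libraries on 1 side of the 2-week library in each. Rpl23a, a protein at the tunnel exit, had log2 changes of 0.20 (tenocyte-like), 0.39 (progenitor-like) and -0.69 (mural-like cells). Against progenitor-like cells the same held for Rpl35 (0.19 and -0.48 in mural-like cells), Rpl35a (0.25 and -0.43), Rpl4 (0.04 and -0.58) and Rps28 (0.16 and -0.62). Over the alternatives the mural-like log2 change reached 0.14 for Rpl35, 0.13 for Rpl35a, 0.17 for Rpl4 and 0.06 for Rps28, and the progenitor-like change of Rpl4 went down to -0.09, so each of these 4 contrasts was lost under at least 1 alternative, while Rpl23a kept its directions. None of these values passed edgeR's quasi-likelihood test, the difference between mural-like cells and the other classes was not tested, and the 20-week mural-like sums come from 44 and 35 cells. Those cells lay mostly in another cluster than the 2-week mural-like cells.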

How the results depend on the processing

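No paired analysis was possible because the 2-week group has 1 library, so the ages share fewer than 2 replicate numbers. Without either 20-week library no test could be made, and log2 ratios stand in the text above. The count of ribosomal protein genes called over all cells was 1 in place of 0 with DESeq2, with all genes of at least 1 UMI and, chosen after seeing the data, with scaling to the ribosomal total. That gene was Rpl3l each time. Of all genes, DESeq2 called 120 higher and 77 lower of 13227. The fit on genes of at least 1 UMI called 401 and 304 of 20808. The fit scaled to the ribosomal total called 170 and 82 of 13227. The other alternatives called 0 ribosomal protein genes in each comparison, the alternatives for mural-like cells also being chosen after seeing the data. In tenocyte-like cells the 20-week minus 2-week difference of the ribosomal share, 1.09 points, turned to -1.29 without collagen UMIs, -0.391 as a median over cells and -0.125 as that median at 1000 UMIs per cell. Thinning to 1000 UMIs gave differences in paralog share of -12.6 points for Rpl22l1 in tenocyte-like cells, -3.07 for Rpl36al over all cells, and -8.71 for Rpl36al and -6.66 for Rps27l in progenitor-like cells. Clustering resolution 1.0 gave -6.63 and -7.13 for the last 2. The direction of the Rpl22l1, Rps27l and Rpl36al differences did not turn in any alternative run. In mural-like cells Rpl12 and Rps15 turned to -0.073 and -0.093 with all genes of at least 1 UMI.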
